A study of Mus musculus with 12 samples.

Results

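miR-125a and miR-125b were described in small RNA libraries of mitochondria isolated from mouse hearts. Their 5 rows, mmu-miR-125a-5p, mmu-miR-125b-5p, mmu-miR-125a-3p, mmu-miR-125b-1-3p and mmu-miR-125b-2-3p, were taken by name from a table of 932 miRNA rows, and all 5 were listed. The 12 libraries comprised 6 from db/db mice, a leptin receptor mutant that becomes obese and diabetic, and 6 from WT mice. The labels give the genotype, the heart as tissue and the mitochondrial fraction; they name no strain, age, sex or treatment. Whether the numbered samples of a genotype are different animals is not stated, and the spread that each p-value is set against may therefore be technical. Values are in RPM, reads per 1000000 reads of all listed rows. RPM is a share of a library, so a row can differ because other rows do, and fewer cells of a type cannot be told apart from less RNA per cell.

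The miR-125 family is the vertebrate counterpart of lin-4, a regulator of developmental timing in Caenorhabditis elegans. A miRNA guides an Argonaute protein to messenger RNAs that pair with its seed, bases 2 to 8 from the 5′ end, so miRNAs with 1 seed share many predicted targets. A precursor hairpin has 2 arms: here the 5p arm is the guide that is mostly retained, and the 3p arm is its partner strand. miR-125b is known in mouse for repressing Bak1, a gene that promotes cell death, and the family for repressing Lin28a.

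The guide arms are shown with the seed in capitals, because the seed and the first bases that follow are shared and decide how far reads of the 2 can be told apart. miR-351-5p is shown as the other listed miRNA with this seed. The mature sequences are from RefSeq, assembly GRCm38.p6, and were matched by name for all 5 rows and for miR-351-5p.
miR-125a-5p: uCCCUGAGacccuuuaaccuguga
miR-125b-5p: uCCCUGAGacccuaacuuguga
miR-351-5p: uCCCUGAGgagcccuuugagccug

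miR-125a-5p and miR-125b-5p share their first 13 bases and their last 5, and an alignment needs 3 changes to turn one into the other. miR-351-5p shares only the first 8 bases with each. A read cut back to the shared 13 bases could not be assigned to miR-125a or miR-125b. miR-6367 and miR-6394 have the same seed in RefSeq and have no row in the table.

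The 3p arms are shown because they alone tell the precursors of miR-125b apart. Capitals again mark bases 2 to 8.
miR-125a-3p: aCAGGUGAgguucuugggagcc
miR-125b-1-3p: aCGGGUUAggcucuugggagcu
miR-125b-2-3p: aCAAGUCAgguucuugggaccu

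The 3p arms share no seed. miR-125a-3p differed from each miR-125b 3p arm at 4 of 22 positions, and the 3p arms of miR-125b differed from each other at 5. The miR-125a hairpin shows how the 2 arms face each other, with the mature arms in capitals.
Mir125a: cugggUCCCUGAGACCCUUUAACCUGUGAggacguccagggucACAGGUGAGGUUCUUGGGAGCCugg

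Mir125a lies on the plus strand at chr17:17830812-17830879 (GRCm38.p6), overlapping an exon of the protein-coding gene Spaca6 in GENCODE M21. It starts 624 bases after Mir99b and 460 bases after Mirlet7e. miR-125b-5p is made from Mir125b-1 and Mir125b-2. The 5p arm of Mir125b-1 is at chr9:41581940-41581961, plus strand, in an intron of the noncoding RNA 3110039I08Rik and over an exon of Gm28119, and that of Mir125b-2 is at chr16:77646279-77646300, plus strand, in an intron of the noncoding RNA Mir99ahg. Both copies of the 5p arm are identical, so its row holds reads of both loci. Each precursor lies with a let-7 and a miR-99 or miR-100 gene, with starts 45210 to 50501 bases apart on chromosomes 9 and 16. The table itself was made on GRCm39, so these positions locate the genes and were not used to count reads.

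Recovered depth ranged from 412749 to 1382046 reads. The heart muscle miRNAs miR-1a-3p, miR-133a-3p, miR-208a-3p and miR-499-5p were above 0 in every library and together held 337987 to 439537 RPM in db/db and 366749 to 420533 RPM in WT libraries. Most of this sum was miR-133a-3p, whose log2 difference of db/db minus WT was 0.07. The others were lower in db/db libraries: miR-1a-3p at -0.25, miR-499-5p at -0.26 and miR-208a-3p at -1.34 (limma adjusted p from 0.504 to 0.717). Other fractions of the heart were not analysed here, so the location of miR-125 inside mitochondria was not tested. WT library 4 and db/db library 6 were the shallowest, at 551591 and 412749 reads. Unnamed rows took their largest shares in the same pair, 0.160% and 0.157%.

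miR-125b-5p, the more abundant guide arm, was higher on average in db/db libraries, but the difference did not pass the test over all miRNAs. Its level in db/db libraries 1 to 6 was 43556, 51870, 49841, 37646, 35757 and 65212 RPM. In WT libraries 1 to 6 it was 40762, 42006, 41343, 37983, 24852 and 33044 RPM. The groups overlapped: db/db libraries 1, 2, 3 and 6 lay above every WT library, and db/db libraries 4 and 5 lay below WT libraries 1 to 4. The mean was 47314 ± 10850 RPM in db/db and 36665 ± 6657 RPM in WT libraries (SD, n = 6 each). The log2 fold change of db/db minus WT, on the log2(RPM + 1) scale, was 0.36 ± 0.13 (SE; 95% interval 0.09 to 0.63; limma unadjusted p = 0.00923, adjusted p = 0.351). Without db/db library 6 it was 0.26 (limma adjusted p = 0.662), and without WT library 5 it was 0.25 (limma adjusted p = 0.728). Without both shallow libraries it was 0.28 (limma adjusted p = 0.703). Each SE, interval and p-value of the main limma fit uses a variance drawn partly from rows of like abundance. Such an SE is not the spread of the row alone. Without the abundance trend the unadjusted limma p of miR-125b-5p was 0.144.

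miR-125b-5p was among the leading miRNAs of these preparations. It ranked between 2 and 4 in abundance in the db/db libraries and between 3 and 11 in the WT libraries, and each value rested on 20951 to 49418 reads. Counting error was 0.531% of the mean in db/db and 0.612% in WT libraries, against a spread between libraries of 22.9% and 18.2%. Read number therefore did not limit its precision.

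miR-125a-5p, the guide arm of the chromosome 17 locus, had a difference of the same sign that did not pass either. Its level in db/db libraries 1 to 6 was 15137, 20229, 18818, 10229, 9908 and 22372 RPM. In WT libraries 1 to 6 it was 14355, 17402, 16960, 12711, 7527 and 9281 RPM. The genotypes overlapped: db/db libraries 2, 3 and 6 lay above every WT library, WT libraries 5 and 6 lay below every db/db library, and the rest were mixed. The mean was 16115 ± 5244 RPM in db/db and 13039 ± 4019 RPM in WT libraries (SD, n = 6 each), and db/db minus WT was 0.30 ± 0.17 on the log2 scale (SE; 95% interval -0.03 to 0.63; limma unadjusted p = 0.0772, adjusted p = 0.716). Without db/db library 6 it was 0.19 (limma adjusted p = 0.746), and without WT library 5 it was 0.15 (limma adjusted p = 0.728). Without both shallow libraries it was 0.20 (limma adjusted p = 0.703). The SE and interval again draw on rows of like abundance, and without that trend the unadjusted limma p was 0.352. miR-125a-5p ranked between 10 and 23 in abundance over the 12 libraries and was read 7011 to 14641 times in each.

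**Figure D1:**
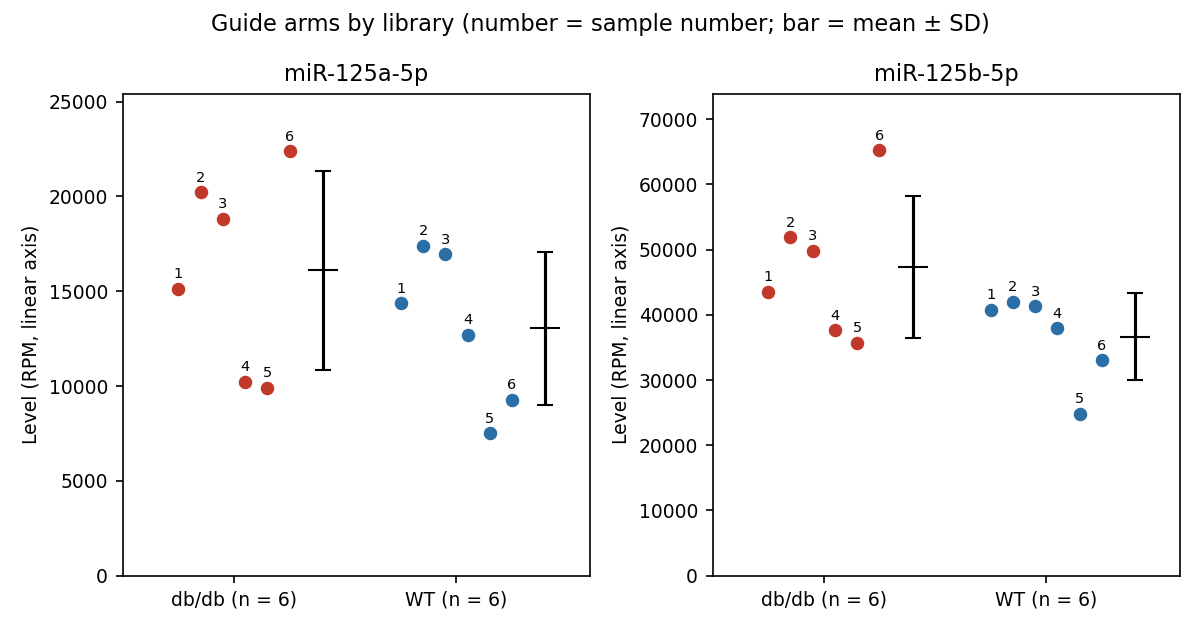
Level of miR-125a-5p and miR-125b-5p in RPM on linear axes that start at 0; each point is a library, numbered as in the labels, and bars give mean ± SD of 6. Libraries of both genotypes overlap for both miRNAs, and db/db library 6 is highest in each panel.

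None of the 5 rows was called at a limma adjusted p under 0.05, where 0.155% of the 646 rows tested were (1 row, lower in db/db). At an unadjusted p under 0.05, 1 of the 5 stood, miR-125b-5p, against 8.98% of all rows tested and 4.33% that were higher in db/db. Without the abundance trend in the variance, limma gave miR-125b-5p an unadjusted p of 0.144, and 36 of the 646 rows were under 0.05. No member had genotypes that did not overlap, against 0.929% of rows. Positive log2 fold changes were found in 4 of the 5, whose median was 0.36, beside 47.7% positive and a median of -0.04 over all 646. On reads recovered from RPM, DESeq2 called miR-125b-5p higher in db/db libraries (log2 fold change 0.42, adjusted p = 0.0496), while edgeR did not (0.41, adjusted p = 0.135). DESeq2 called 2.01% of the rows, 1.55% as higher in db/db, and edgeR 0.464%. DESeq2 gave no adjusted p for 501 of the 646 rows and so adjusted over fewer. Those rows could not be called. Its 13 calls, 10 of them higher in db/db, are therefore a larger share of the rows that could be called than of all 646.

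The 2 guide arms varied together from library to library. Within db/db libraries both followed 1 order, from library 5 lowest through 4, 1, 3 and 2 to library 6 highest. Within WT libraries both followed the order 5, 6, 4, 1, 3 and 2. Pearson's r on log2(RPM + 1) was 0.953 within db/db and 0.950 within WT libraries, and Spearman's rho was 1 in each (n = 6 each; by exact permutation of pairings, p = 0.00278 for each, the smallest it can give; adjusted over 6 relations 0.00278). Over all 12 libraries r was 0.930 and rho 0.979 (permutation test, two-sided, p = 2e-05 for each, adjusted p = 6e-05). Without WT library 5 and db/db library 6, the libraries farthest from the median of miR-125a-5p, r was 0.921 (n = 10, permutation p = 6e-05). Both values are shares of the same library total, so the 2 rows are not fully separate measurements. The arms also share their first 13 bases, and whether any reads were assigned to the wrong arm was not examined.

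**Figure D2:**
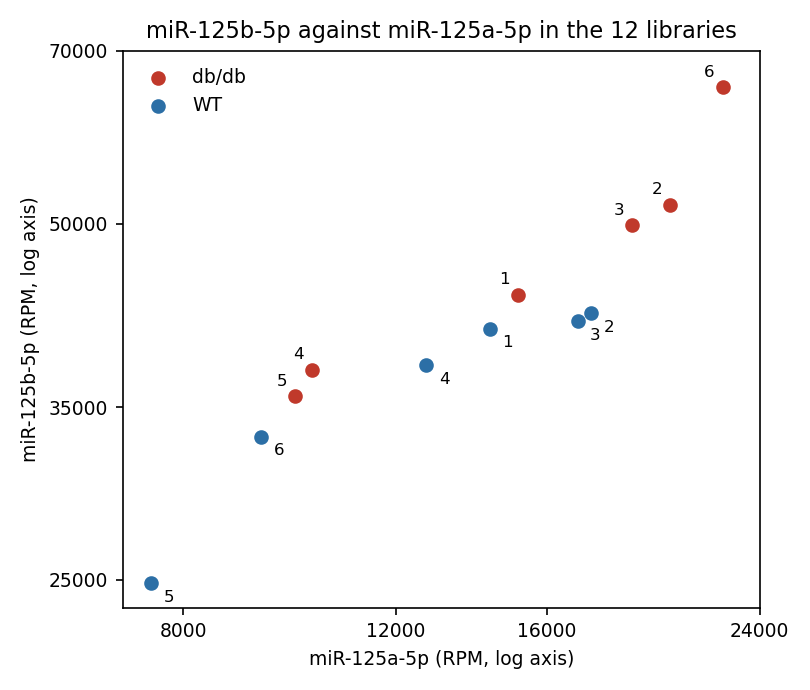
miR-125b-5p against miR-125a-5p in RPM, both on log axes; each point is a library, numbered as in the labels, red for db/db and blue for WT. The points rise together, from WT library 5 at 7527 and 24852 RPM to db/db library 6 at 22372 and 65212 RPM. Libraries numbered 4 to 6 have a higher ratio of miR-125b-5p to miR-125a-5p than those numbered 1 to 3.

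The balance of the 2 guide arms was not shown to differ between the genotypes. miR-125b-5p was 2.56 to 3.68 times as abundant as miR-125a-5p in db/db libraries and 2.41 to 3.56 times in WT libraries. The log2 ratio was 1.59 ± 0.22 in db/db and 1.53 ± 0.23 in WT libraries (SD, n = 6 each), a difference of 0.06 (exact permutation test, two-sided, p = 0.643, also after adjustment over 5 derived measures). The 2 together held 6.34% ± 1.59 of reads in db/db and 4.97% ± 1.05 in WT libraries (SD, n = 6 each), with a two-sided exact permutation p of 0.104 (adjusted p = 0.260). In 4 of 6 db/db libraries this share exceeded the WT median of 5.29%. The difference of 1.37 percentage points was 0.889 without db/db library 6 and 0.909 without both shallow libraries. The smallest p that this permutation test can give is 0.00216.

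The ratio also differed by sample number. It was 2.88, 2.56 and 2.65 in db/db libraries 1 to 3 and 2.84, 2.41 and 2.44 in WT libraries 1 to 3. It was 3.68, 3.61 and 2.91 in db/db libraries 4 to 6 and 2.99, 3.30 and 3.56 in WT libraries 4 to 6. Every library numbered 4 to 6 thus had a higher ratio than every library numbered 1 to 3. This grouping by number was known from earlier results of these data, the labels name no batch, and no test of it is given here.

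Levels split by number in WT more clearly than in db/db libraries. miR-125a-5p ranged from 15137 to 20229 RPM in db/db libraries 1 to 3 and from 14355 to 17402 RPM in WT libraries 1 to 3. In libraries 4 to 6 it ranged from 9908 to 22372 RPM in db/db and from 7527 to 12711 RPM in WT. The ranges of WT libraries 1 to 3 and 4 to 6 do not meet, and in db/db libraries library 6 crosses over. Within numbers 1 to 3 the log2 difference of db/db minus WT was 0.15 for miR-125a-5p and 0.22 for miR-125b-5p, and within 4 to 6 it was 0.45 and 0.50. With the number group as a factor, limma called 1.55% of rows and gave miR-125b-5p an adjusted p of 0.0616 and miR-125a-5p 0.306. edgeR with that factor called miR-125b-5p higher in db/db (log2 fold change 0.42, adjusted p = 0.0362), among 1.39% of rows called and 0.774% called higher, and not miR-125a-5p (0.38, adjusted p = 0.121). The relation between the 2 guide arms was also present after the mean of each genotype and number group was subtracted (r = 0.973 over the 12 libraries). No p-value is given for it, because values centred within groups cannot be exchanged freely between groups.

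**Figure D3:**
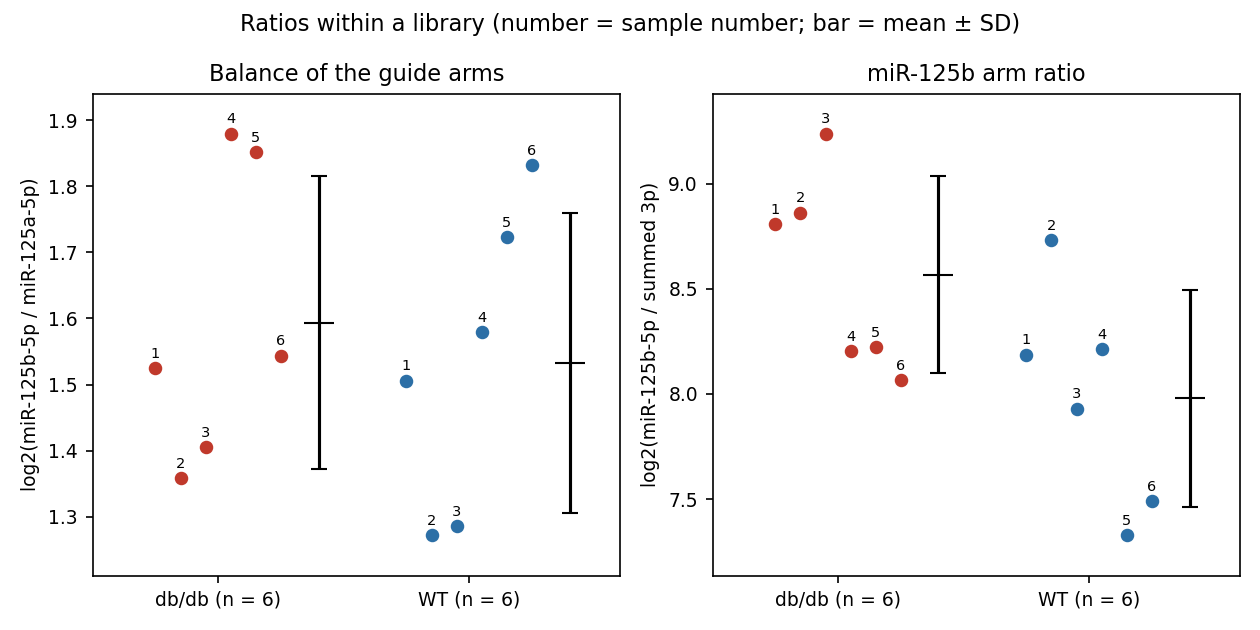
Left, log2 ratio of miR-125b-5p to miR-125a-5p; right, log2 ratio of miR-125b-5p to its summed 3p arms. Points are libraries numbered as in the labels and bars give mean ± SD of 6; the axes do not start at 0. On the left, libraries 4 to 6 lie above libraries 1 to 3 in both genotypes; on the right, all 6 db/db libraries lie above the WT median of 8.06.

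The 3p arms were rare. Over the 12 libraries miR-125a-5p had 127470 reads and miR-125a-3p 150, and miR-125b-5p had 373588 reads and the miR-125b 3p arms 1242 in all. The 3p arm was 0.130% ± 0.0390 of miR-125a reads in db/db and 0.114% ± 0.0875 in WT libraries (SD, n = 6 each). For miR-125b the share was 0.272% ± 0.0837 in db/db and 0.413% ± 0.144 in WT libraries (SD, n = 6 each).

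miR-125b-2-3p, the partner strand of the chromosome 16 locus, was the most abundant of them and, unlike its guide arm, had a lower mean in db/db libraries. Its level was 86.7, 99.5, 64.7, 114, 116 and 187 RPM in db/db libraries 1 to 6, and 127, 97.9, 150, 83.4, 150 and 166 RPM in WT libraries 1 to 6. The genotypes overlapped, and db/db library 6 was highest of all 12. The mean was 111 ± 41.5 RPM in db/db and 129 ± 32.4 RPM in WT libraries (SD, n = 6 each), and db/db minus WT was -0.25 ± 0.29 on the log2 scale (SE; 95% interval -0.83 to 0.34; limma adjusted p = 0.733). It was -0.41 without db/db library 6 and -0.52 without both shallow libraries, where the limma adjusted p was 0.746 and 0.703. Over all libraries, db/db minus WT was -0.57 within numbers 1 to 3 and 0.08 within 4 to 6.

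The log2 ratio of miR-125b-5p to its summed 3p arms, with 1 RPM added to each term, was higher in db/db libraries on average. It was 8.81, 8.86, 9.24, 8.20, 8.22 and 8.07 in db/db libraries 1 to 6, and 8.19, 8.73, 7.93, 8.21, 7.33 and 7.49 in WT libraries 1 to 6. All 6 db/db libraries lay above the WT median, although WT libraries 1, 2 and 4 reached into the db/db range. The mean was 8.57 ± 0.47 in db/db and 7.98 ± 0.52 in WT libraries (SD, n = 6 each), a difference of 0.59 that did not pass (exact permutation test, two-sided, p = 0.0584, adjusted p = 0.260). It was 0.69 within numbers 1 to 3 and 0.49 within 4 to 6, and with labels permuted only within these number groups the exact permutation p was 0.0250 (adjusted p = 0.125). Without both shallow libraries the difference was 0.73 (exact permutation p = 0.0397, adjusted p = 0.198).

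miR-125b-1-3p, from the chromosome 9 locus, was read 0 to 24 times per library. Its level was 9.63, 11.1, 16.8, 12.9, 2.89 and 55.7 RPM in db/db libraries 1 to 6, and 12.2, 0, 18.7, 43.5, 4.16 and 17.0 RPM in WT libraries 1 to 6. The highest values, 55.7 and 43.5 RPM, stood in the 2 shallowest libraries, db/db 6 and WT 4, as 23 and 24 reads. The value of 0 in WT library 2 allows up to 4.74 RPM, a limit of 3 reads that covers counting error only. The log2 fold change was 0.45 ± 0.81 (SE; 95% interval -1.17 to 2.07; limma adjusted p = 0.831) and turned to -0.22 without WT library 2.

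Reads of the 3p arms came mostly from the chromosome 16 locus in both genotypes. miR-125b-1-3p made up 65 of 575 miR-125b 3p reads, or 11.3%, in db/db libraries and 66 of 667, or 9.90%, in WT libraries. Per library, the log2 ratio of miR-125b-1-3p to miR-125b-2-3p was -2.94 ± 1.14 in db/db and -3.64 ± 1.93 in WT libraries (SD, n = 6 each), with a two-sided exact permutation p of 0.481 (adjusted p = 0.601). The lowest value was in WT library 2, where miR-125b-1-3p was at 0. The difference of 0.70 was 0.10 without WT library 2, 1.24 without WT library 4 and 1.00 without both shallow libraries. It was 0.45 without WT library 5 and also without db/db library 6, and 1.09 without db/db library 5. Within numbers 1 to 3 it was 1.62, and within 4 to 6 it was -0.22. The share of 5p reads made by each locus cannot be told apart from these rows.

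miR-125a-3p was read 3 to 21 times per library. Its level was 28.9, 24.9, 22.0, 12.9, 7.24 and 33.9 RPM in db/db libraries 1 to 6, and 22.9, 6.32, 8.74, 18.1, 3.12 and 23.8 RPM in WT libraries 1 to 6. The genotypes overlapped over most of the range, and in 4 of 6 db/db libraries it exceeded the WT median of 13.4 RPM. The log2 fold change was 0.74 ± 0.66 (SE; 95% interval -0.59 to 2.07; limma adjusted p = 0.717). The log2 ratio of miR-125a-5p to miR-125a-3p was 9.56 ± 0.41 in db/db and 10.00 ± 1.08 in WT libraries (SD, n = 6 each), with a two-sided exact permutation p of 0.368 (adjusted p = 0.601). The difference of -0.44 was -0.19 without WT library 2, -0.28 without WT library 3, -0.27 without WT library 5 and -0.73 without WT library 6. Within numbers 1 to 3 it was -0.98, and within 4 to 6 it was 0.11.

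**Figure D4:**
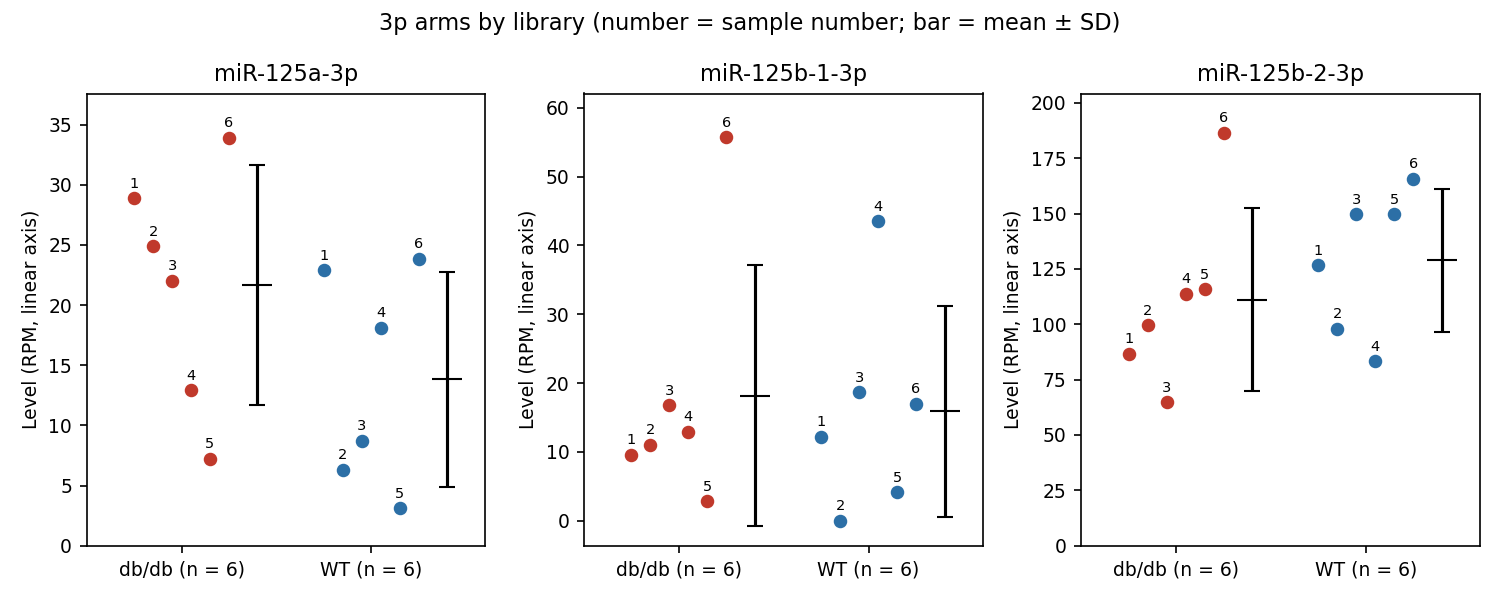
Level of the 3p arms in RPM on linear axes; each point is a library, numbered as in the labels, and bars give mean ± SD of 6. miR-125b-2-3p reaches 187 RPM, the other 2 stay at or below 55.7 RPM, and the genotypes overlap in each panel.

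miR-351-5p, encoded on the X chromosome with the same seed, had nearly equal means in the genotypes. It averaged 423 ± 125 RPM in db/db and 427 ± 147 RPM in WT libraries (SD, n = 6 each), and its log2 difference was -0.01 ± 0.22 (SE; adjusted p = 0.993 by limma). By number it ranged from 452 to 512 RPM in db/db and 450 to 663 RPM in WT libraries 1 to 3, and from 260 to 560 RPM in db/db and 299 to 320 RPM in WT libraries 4 to 6. miR-125a-5p was 34.7 times and miR-125b-5p 104 times as abundant as miR-351-5p in the median library, so the 2 held nearly all reads with this seed.

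Of 12 arms encoded beside the miR-125 precursors, 11 were tested and 0 were called in either direction, with 6 positive and a median log2 fold change of 0.09, and 1 had an unadjusted p under 0.05. Over all 646 rows, 0.155% were called, 8.98% had an unadjusted p under 0.05 and 47.7% were positive, so these counts lay near the background. let-7a-2-3p has no row in the table. Among the guide arms, let-7a-5p, of the let-7 family that restrains growth, averaged 7617 ± 1164 RPM in db/db and 6047 ± 1111 RPM in WT libraries (SD, n = 6 each), a log2 difference of 0.34 ± 0.14 (SE; unadjusted p = 0.0159 and adjusted p = 0.504 by limma). let-7c-5p stood at 0.22 ± 0.14, let-7e-5p at 0.24 ± 0.23, miR-99b-5p at 0.09 ± 0.14, miR-99a-5p at 0.16 ± 0.13 and miR-100-5p at -0.12 ± 0.14 in log2 difference ± SE, with adjusted p from 0.717 to 0.791 by limma. let-7a-5p and let-7c-5p are also made from other loci.

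**Figure D5:**
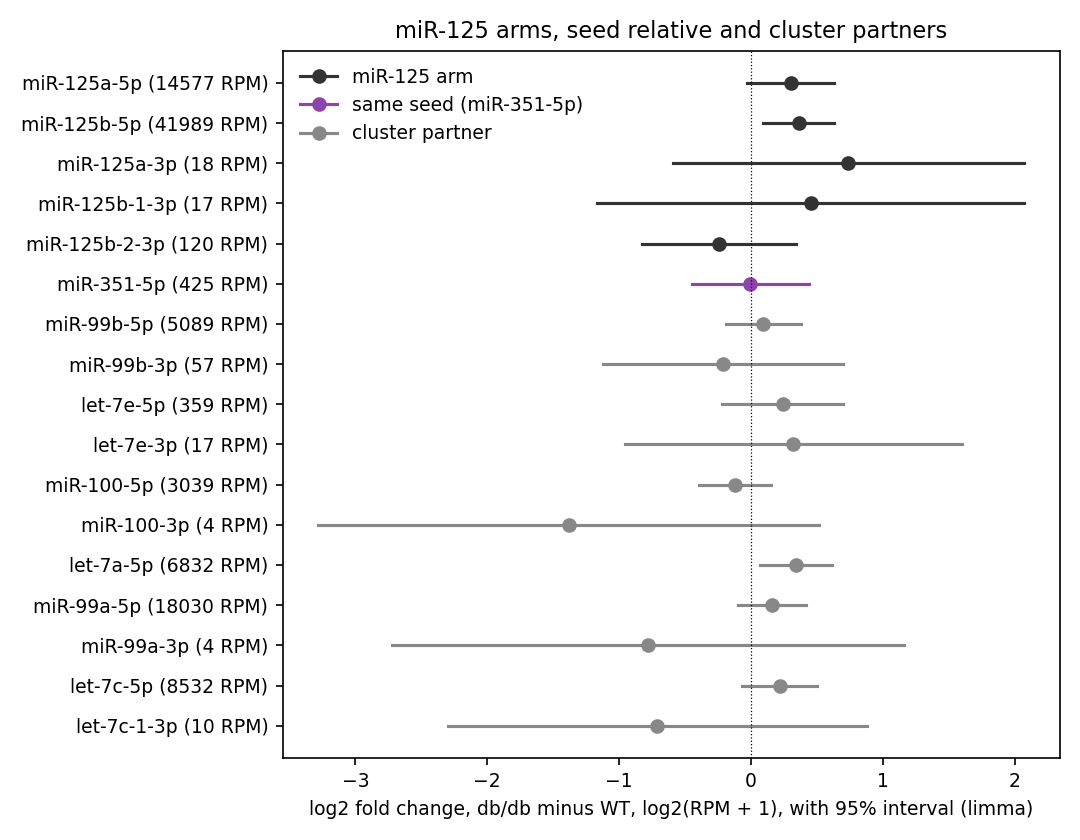
Log2 fold change of db/db minus WT with its 95% interval from limma for the miR-125 arms (black), miR-351-5p (purple) and the cluster partners (grey), with the mean RPM over 12 libraries beside each name. The interval of miR-125b-5p, 0.09 to 0.63, lies above 0 before adjustment, as does that of let-7a-5p, and the rarest arms have the widest intervals. All intervals rest on a variance drawn partly from rows of like abundance. Without that trend the unadjusted limma p of miR-125b-5p was 0.144.

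Likeness over the 12 libraries was measured as the SD of the log2 ratio of 2 miRNAs, which library scaling barely affects, among the 145 other named miRNAs with a mean of at least 100 RPM. For miR-125a-5p the closest were miR-151-5p (0.16), miR-150-5p (0.19), let-7d-3p (0.20), miR-125b-5p (0.22) and miR-28a-5p (0.25), against a median of 0.55. For miR-125b-5p they were let-7d-3p (0.13), let-7c-5p (0.15), miR-151-3p (0.17), miR-486a-5p (0.17) and miR-486b-5p (0.17), against a median of 0.45. miR-125a-5p ranked 8 in likeness to miR-125b-5p (0.22), behind miRNAs of other families. miR-486a-5p and miR-486b-5p come from 1 locus and may share reads. miR-150-5p and miR-486a-5p also stand in the leukocyte and red cell marker lists. Other members of these lists were among the least alike. The red cell marker miR-451a ranked 140 for miR-125a-5p and 143 for miR-125b-5p (SD 0.96 and 0.87). The leukocyte marker miR-223-3p ranked 132 and 133 (SD 0.85 and 0.74).

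Cluster partners were not uniformly close. let-7e-5p ranked 7 and miR-99b-5p 16 in likeness to miR-125a-5p, with SDs of 0.26 and 0.31. let-7c-5p ranked 2 and let-7a-5p 6 for miR-125b-5p, while miR-100-5p ranked 38 (SD 0.34) and miR-99a-5p 60 (0.41). miR-125b-2-3p, cut from the same hairpin as miR-125b-5p, ranked 115 with an SD of 0.61, at 46 to 160 reads per library.

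Markers of other cell types also differed in mean between the genotypes, and their part in the miR-125 values was not tested. The list of red cell markers held miR-451a, miR-144-3p, miR-144-5p and miR-486a-5p. These 4 summed to 18284 to 30731 RPM in db/db and 9935 to 21146 RPM in WT libraries, and most of the sum was miR-486a-5p. Its log2 difference was 0.53 (limma adjusted p = 0.0869), against 0.26 for miR-451a, 0.60 for miR-144-3p and -0.53 for miR-144-5p. The sum thus mainly follows miR-486a-5p, and whether that row marks red cells in these preparations was not tested. The smooth muscle markers miR-143-3p and miR-145a-5p summed to 20809 to 34844 RPM in db/db and 29762 to 43508 RPM in WT libraries. The endothelial markers miR-126a-3p and miR-126a-5p summed to 15588 to 25095 RPM in db/db and 18852 to 29569 RPM in WT libraries, and the 3 fibroblast markers to 3639 to 4354 RPM in db/db and 3391 to 4805 RPM in WT libraries. The 5 leukocyte markers summed to 2981 to 6769 RPM in db/db and 3308 to 5171 RPM in WT libraries, of which most was miR-150-5p. The red cell, fibroblast and leukocyte sums hold members of opposite sign, while every smooth muscle and endothelial marker had a negative log2 difference. miR-223-3p, a myeloid cell miRNA, stood at -0.72 in log2 difference without overlap of the genotypes (unadjusted p = 0.00168 and adjusted p = 0.109 by limma). Such lack of overlap was found in 0.929% of all rows tested. Of the other leukocyte markers, miR-142a-3p stood at -0.91, miR-142a-5p at 0.16, miR-150-5p at 0.20 and miR-155-5p at 0.28. Among the fibroblast markers the log2 difference was -0.36 for miR-199a-5p, against 0.45 for miR-214-3p (adjusted p = 0.543 for each by limma). The liver marker miR-122-5p had a median of 0 RPM in db/db and 2.27 RPM in WT libraries, and the neural markers summed to 53.1 to 160 RPM in db/db and 47.4 to 132 RPM in WT libraries. No marker in these lists was called by limma in db/db minus WT, where 0.155% of all rows were.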

How the data were processed

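The labels describe adapter ligation to total RNA, reverse transcription, amplification and size selection on a gel. The authors deposited 1 table under the name TPM. Its columns each sum to 1000000 and 100% of values are whole multiples of 1 read within 0.01 of a read, so the deposited unit was treated as RPM. GRCm39 is the build in the submitters' processing notes, while the aligner used is not given in the sources used here. All 66 pairs of libraries differed beyond sampling noise (chi-square per degree of freedom at least 18.6). limma 3.58.1 (R 4.3.3, variance trend) compared log2(RPM + 1) over 646 rows averaging at least 1 RPM, two-sided, with Benjamini-Hochberg adjustment and calls under 0.05. Ratios and shares were tested by exact permutation (924 assignments). edgeR 4.0.16 and DESeq2 1.42.0 were run on recovered reads as alternatives. Named miRNAs were the 5 rows, their seed relatives, cluster partners, markers and the 5 nearest in pattern. These rows, the lists and the 2 number groups were chosen with earlier results of these data known.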

Additional observations from a re-analysis of the deposited data

Results flagged for a closer look

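miR-125b-1-3p was 55.7 RPM in db/db library 6 and at most 16.8 RPM in the other db/db libraries, a gap of 0.736 of the whole range. It was the 1 library that stood apart in a search of 20 groups of 6, where chance alone flags about 1 in 20 groups, or 1 here. The value rests on 23 reads in the shallowest library.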

How the results depend on the processing

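With 5 rows and 5 derived measures, most alternatives left each result on its side of the threshold. miR-125a-5p stood between 0.20 and 0.38 in log2 fold change over 15 settings and between 0.15 and 0.43 with 1 library left out, with no call. miR-125b-5p stood between 0.28 and 0.48, and between 0.25 and 0.44 with 1 library left out. It passed with DESeq2 (0.42) and with edgeR and numbers 1 to 3 and 4 to 6 as a factor (0.42); the cause was not tested. With 1 library left out, miR-125a-3p ranged from 0.42 to 1.00, miR-125b-1-3p from -0.22 to 0.88 (reversed without WT library 2, at 0 there) and miR-125b-2-3p from -0.41 to -0.11. Neither of the 2 rare 3p arms could be fitted at a mean of at least 100 RPM. The count of called miRNAs, 1, was 0 at pseudocounts of 0.1 and 10 RPM, without a filter, at mean filters of 10 and 100 RPM, after quantile normalization, without the trend, and without both shallow libraries. It was 2 after median-of-ratios scaling, 10 with the number group as a factor, 3 with edgeR, 9 with edgeR and that factor, and 13 with DESeq2. Leaving out 1 library gave 0 to 7 calls. The count was 7 when db/db 5 was left out, 3 for db/db 4, 1 for db/db 6, 6 for WT 1 and also for WT 3, and 0 for each other library. With sample number as a replicate block limma called 9, and miR-125b-5p kept 0.36 (adjusted p = 0.0506). The numbers are not known to pair the samples: deviations of same-numbered libraries correlated at -0.05 to 0.12, and only number 5 matched best with its own number in both genotypes. No call on the 5 derived measures changed with any setting; leaving out 1 library, the summed share differed by 0.889 to 1.73 percentage points, the log2 ratio of miR-125b-5p to miR-125a-5p by 0.0038 to 0.12, that of miR-125a-5p to its 3p arm by -0.73 to -0.19, that of miR-125b-5p to its 3p arms by 0.45 to 0.74, and that of miR-125b-1-3p to miR-125b-2-3p by 0.10 to 1.24. Depth limits miR-125a-3p and miR-125b-1-3p only in part. Their counting error was 25.8% to 31.6% of the mean, against a spread between libraries of 46.1% to 104%.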
